A study of Mus musculus with 2 samples.

Results

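Lymphoid-primed genes were examined in RNA-seq of bone marrow (BM) LSKs from Scl/tTA-BA mice before and after induction of BCR/ABL1 (BA). The 10 genes are Flt3, Il7r, Dntt, Rag1, Rag2, Satb1, Ebf1, Notch1, Ccr9 and Ly6d, taken by symbol from the 34745 genes of the deposited tables. All 10 had a row. LSKs are lineage-negative cells positive for c-Kit and Sca1, the fraction of marrow that holds stem cells and multipotent progenitors. The mice were C57BL/6 and carried both transgenes at both time points, the Scl/tTA driver and BA under a tetracycline-responsive element. The week-0 mice were on doxycycline, which keeps BA off, and the week-3 mice had been without it for 3 weeks. LSKs of 3 mice were pooled for each library, and the age of the mice is not given in the sources used here. The Scl/tTA driver acts in hematopoietic stem and progenitor cells, and in reporter mice of the same driver a part of the LSKs carried no signal. With 1 library per time point there is no replicate check, and every difference below is between these 2 libraries. The intervals given are exact 95% intervals. They treat each read as an independent draw and cover counting error alone, not the spread between libraries or mice. Amplified reads do not each stand for a separate molecule, so the intervals may be too narrow.

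Lymphoid priming is the early, low-level expression of lymphocyte genes in cells that still have other fates. In mouse marrow it is seen in lymphoid-primed multipotent progenitors, which are LSKs with a high level of the FLT3 receptor. FLT3 and the interleukin-7 receptor carry survival and growth signals. TdT, RAG1 and RAG2 assemble antigen receptor genes, NOTCH1 and CCR9 belong to the route to the thymus, and SATB1, EBF1 and LY6D mark steps towards lymphoid and B-cell fate. In bulk RNA, fewer lymphoid-primed cells among the LSKs and less RNA per cell cannot be told apart.

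Reads assigned to genes numbered 6356164 at week-0 and 3886695 at week-3. The floor of 3 reads, the limit that a count of 0 allows, was 0.472 RPM (reads per 1000000 reads of the library) at week-0 and 0.772 at week-3. The sort genes were well covered in both libraries. Kit, the c-Kit receptor, had an FPKM (a level per length, scaled by exon length and library size) of 16.9 at week-0 and 11.5 at week-3. Ly6a, which encodes Sca1, had levels of 19.8 and 14.8. The 8 lineage panel genes with a row took 12.1 and 10.8 RPM in all, and Cd3e and Cd8a were at 0 reads at week-3.

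Of the lymphoid-primed genes, 8 had at least 10 reads over both libraries. A gene was called when its week-3 level was at least 2 times or at most 0.5 times its week-0 level and its interval lay wholly on that side of equality. By this rule 7 of the 8 were lower at week-3, none was higher, and Satb1 was not called. Among all 13689 genes with at least 10 reads, 14.9% were called lower and 10.5% higher. The median change of the 8 genes in log2(FPKM + 0.1) was -1.86, beside 0.05 over all genes. Together the 10 genes took 0.154% of the reads at week-0 (interval 0.151% to 0.157%) and 0.0466% at week-3 (0.0444% to 0.0488%). The share of Flt3 in those reads was 63.3% and then 51.6%. edgeR's exact test on the reads assumes a spread between libraries beyond counting error. With an assumed biological coefficient of variation of 0.1 it called the same 7 genes, but with an assumed value of 0.4 only Ly6d was called. The true spread between such libraries of pooled mice is unknown here.

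**Figure D1:**
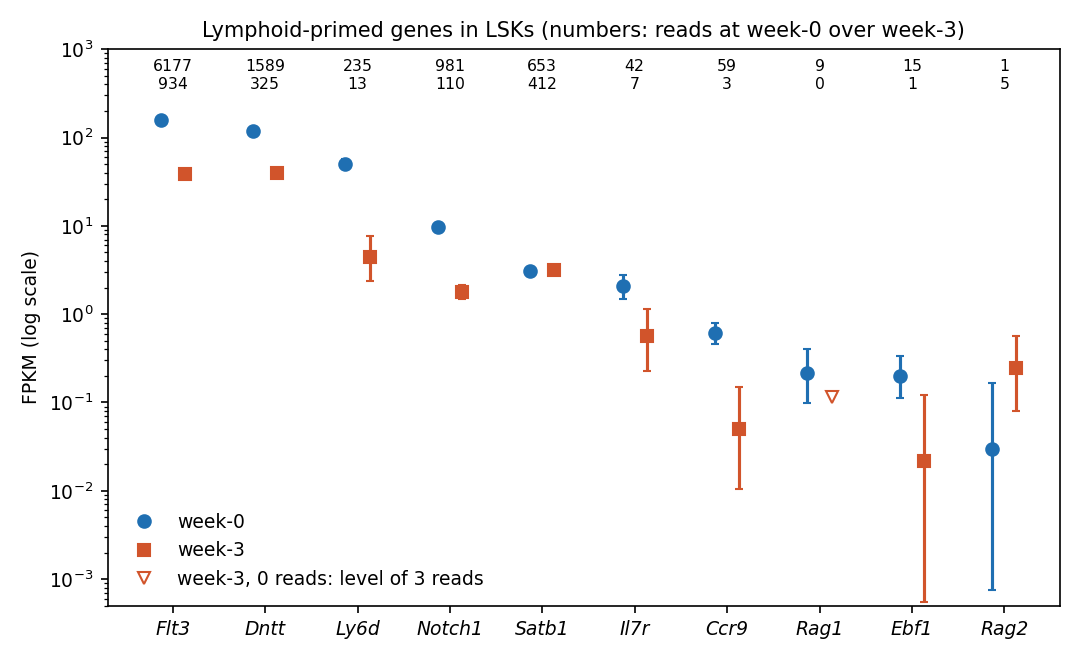
FPKM of the 10 lymphoid-primed genes on a log scale in the week-0 library (circles) and the week-3 library (squares), with exact 95% Poisson intervals and, at the top, the reads behind each value. 7 genes lie lower at week-3, Satb1 lies at the same level in both, and Rag1 at week-3, with 0 reads, is drawn as an open triangle at the level of 3 reads.

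The cytokine receptors were considered first. Flt3 encodes the tyrosine kinase receptor by which lymphoid-primed progenitors are recognised. The gene (ENSMUSG00000042817) spans 147330741 to 147400489 of chromosome 5 (GRCm38, minus strand). Flt3 was covered by 6177 reads at week-0 (FPKM 157) and by 934 at week-3 (FPKM 38.9). The level was 4.04-fold lower at week-3 (interval 3.77 to 4.34). At its week-0 share of the library, 3777 reads would have been counted at week-3. Among the genes with any read, Flt3 stood at percentile 98.3 by FPKM at week-0 and at 92.4 at week-3, so it remained a highly expressed gene.

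Il7r encodes the alpha chain of the interleukin-7 receptor, which is needed for B and T lymphopoiesis in mice. It lies on the minus strand of chromosome 15, from 9506161 to 9529876 (ENSMUSG00000003882). Il7r was covered by 42 reads at week-0 (FPKM 2.06) and by 7 at week-3 (FPKM 0.561). This is 3.67-fold lower, with a wide interval from 1.63 to 9.68 because few reads were counted. Il7r was therefore a minor transcript in both libraries, far under Flt3.

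The recombination genes came next. Dntt, the gene of the template-independent DNA polymerase TdT that adds bases at V(D)J joints, lies on the plus strand of chromosome 19 from 41029275 to 41059523 (ENSMUSG00000025014). Counts for Dntt were 1589 at week-0 (FPKM 117) and 325 at week-3 (FPKM 39.3). The level was 2.99-fold lower at week-3 (interval 2.65 to 3.38). Dntt and Flt3 were the most abundant members in both libraries. The FPKM of Flt3 was 1.34 times that of Dntt at week-0 and 0.990 times at week-3, where their intervals overlapped.

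Rag1 and Rag2, the lymphoid-specific recombinase subunits, lie next to each other on chromosome 2, Rag2 on the plus strand from 101624718 to 101632529 and Rag1 on the minus strand from 101638282 to 101649501. Rag1 had 9 reads at week-0 (FPKM 0.214) and 0 at week-3, where 5.5 reads would have been counted at the week-0 share. Set against the floor of 3 reads, Rag1 was 1.83-fold lower at week-3, and the least fold of its interval was 1.21. Rag2 had 1 read and then 5, a log2 ratio of 3.03 with an interval from -0.13 to 8.60. The interval of Rag1 lay below equality, with an upper log2 limit of -0.27, and that of Rag2 held equality. Both genes were under the minimum of 10 reads, so the call rule was not applied to them. Another gene, B230118H07Rik, overlaps both and shares 208 exonic bases with Rag2 and 80 with Rag1 in GENCODE M21. It had 179 and 169 reads, and the few reads of Rag2 are uncertain for that reason.

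Of the transcription factors, Satb1 encodes a chromatin organiser that favours lymphoid over myeloid fate in stem cells. It lies on the minus strand of chromosome 17 from 51736187 to 51833290 (ENSMUSG00000023927). Counts for Satb1 were 653 at week-0 (FPKM 3.10) and 412 at week-3 (FPKM 3.20). The log2 ratio was 0.05 with an interval from -0.14 to 0.23, and 399 reads would have been counted at week-3 at the week-0 share. Its sign depended on the scaling, since TMM gave -0.03 and median-of-ratios gave -0.02. A ratio of 2 or 0.5 lies outside its counting interval.

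Ebf1 encodes the factor that sets up the B-cell program. On the plus strand of chromosome 11 from 44617317 to 45008091 (ENSMUSG00000057098), it was covered by 15 reads at week-0 (FPKM 0.201) and by a single one at week-3 (FPKM 0.0219). The level was 9.17-fold lower, with an interval from 1.41 to 386. The interval lay wholly on the lower side of equality but left the size open.

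Notch1 encodes the receptor that directs progenitors to the T lineage. It lies on the minus strand of chromosome 2 from 26457903 to 26516663 (ENSMUSG00000026923). Counts for Notch1 were 981 at week-0 (FPKM 9.75) and 110 at week-3 (FPKM 1.79). The level was 5.45-fold lower (interval 4.47 to 6.70). Its percentile among the genes with reads was 78.6 at week-0 and 47.8 at week-3, a larger step than that of Flt3.

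Ccr9, a chemokine receptor of progenitors that settle in the thymus, lies on the plus strand of chromosome 9 from 123678439 to 123783457 (ENSMUSG00000029530). Counts for Ccr9 were 59 at week-0 (FPKM 0.609) and 3 at week-3 (FPKM 0.0506), a log2 ratio of -3.59 with an interval from -5.91 to -1.97. Its neighbour Gm17021, which shares 1932 exonic bases with it, was at 0 reads in both libraries. Its span also holds Lztfl1 on the other strand, with 140 and 65 reads and no exonic base in common with Ccr9.

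Ly6d, a surface protein that marks B-cell-biased lymphoid progenitors, lies on the minus strand of chromosome 15 from 74762056 to 74763620 (ENSMUSG00000034634). Counts for Ly6d were 235 at week-0 (FPKM 49.7) and 13 at week-3 (FPKM 4.50). This was 11.1-fold lower, with an interval from 6.34 to 21.1. At week-0 Ly6d was the most abundant member per length after Flt3 and Dntt, and at week-3 its interval overlapped that of Satb1.

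On the log2 scale, the called genes ran from Ccr9 (-3.59), Ly6d (-3.47) and Ebf1 (-3.20) through Notch1 (-2.45), Flt3 (-2.02) and Il7r (-1.88) to Dntt (-1.58). The intervals of Notch1 (-2.75 to -2.16), Flt3 (-2.12 to -1.92) and Dntt (-1.76 to -1.41) did not overlap one another. The intervals of Ccr9 (-5.91 to -1.97), Ly6d (-4.40 to -2.66) and Ebf1 (-8.59 to -0.50) overlapped one another and that of Notch1. Those of Ccr9 and Ebf1 also overlapped that of Flt3. The interval of Il7r, from -3.28 to -0.71, held the values of Notch1, Flt3 and Dntt. By FPKM, the order at week-0 was Flt3, Dntt, Ly6d, Notch1, Satb1, Il7r, Ccr9, Rag1, Ebf1 and Rag2. Of the neighbours in that order, Rag1, Ebf1 and Rag2 did not differ beyond their counting intervals.

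**Figure D2:**
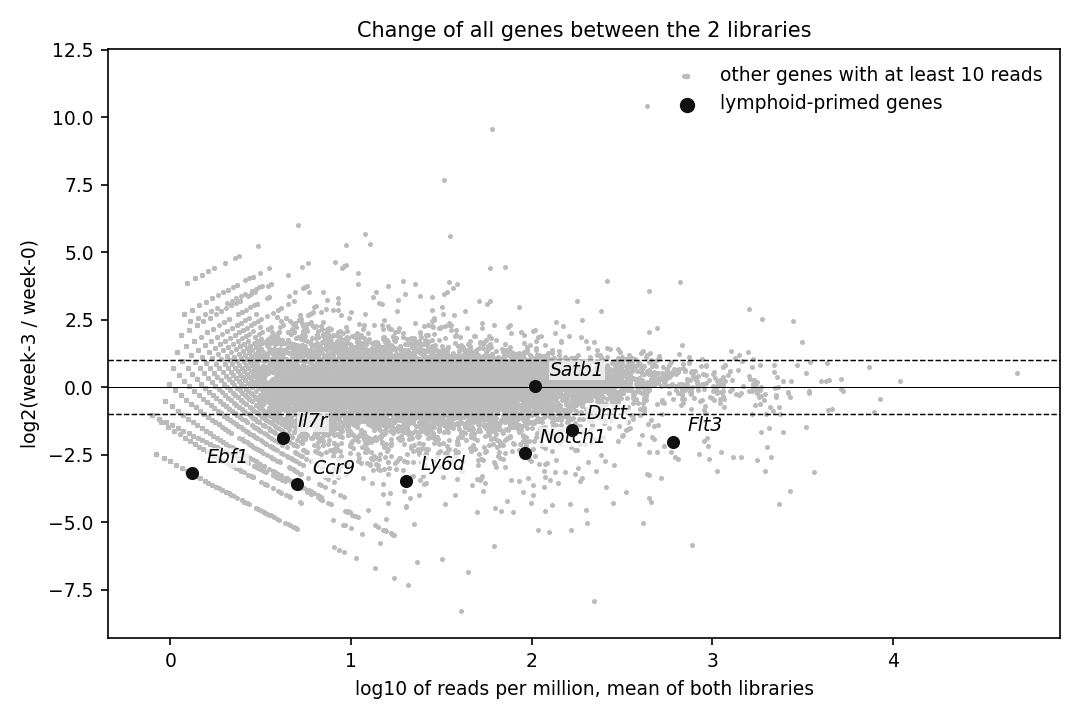
Log2 ratio of week-3 over week-0 (y axis) against the log10 of RPM, averaged over both libraries (x axis), for the genes with at least 10 reads, with a library at 0 set to 3 reads. The dashed lines mark ratios of 2 and 0.5. The 8 lymphoid-primed genes with enough reads are black and labelled, and 7 of them lie under the lower line, from Dntt at -1.58 to Ccr9 at -3.59.

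The promoters of the members were read from RefSeq on GRCm38.p6, from 250 bases before the start to 50 after it, and 9 of the 10 genes had an entry, 14 in all. They were searched on both strands for the E-box CANNTG, which E proteins and other basic helix-loop-helix factors bind, and for GGGAA, the core of Ikaros sites. GGGAA is also part of TGGGAA, the core bound by the Notch partner RBPJ. The promoters of Flt3, Il7r and Dntt are shown because these genes have 1 start each and represent the receptors and the recombination genes. Capitals mark CANNTG and GGGAA on either strand. The windows are chr5:147400440-147400739 on the minus strand for Flt3, chr15:9529827-9530126 on the minus strand for Il7r and chr19:41029025-41029324 on the plus strand for Dntt.
Flt3: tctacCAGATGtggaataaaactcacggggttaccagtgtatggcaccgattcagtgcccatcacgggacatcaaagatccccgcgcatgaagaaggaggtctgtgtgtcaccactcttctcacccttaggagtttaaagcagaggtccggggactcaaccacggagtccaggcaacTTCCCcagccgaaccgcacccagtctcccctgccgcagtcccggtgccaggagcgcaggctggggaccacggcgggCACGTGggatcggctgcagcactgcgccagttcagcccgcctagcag
Il7r: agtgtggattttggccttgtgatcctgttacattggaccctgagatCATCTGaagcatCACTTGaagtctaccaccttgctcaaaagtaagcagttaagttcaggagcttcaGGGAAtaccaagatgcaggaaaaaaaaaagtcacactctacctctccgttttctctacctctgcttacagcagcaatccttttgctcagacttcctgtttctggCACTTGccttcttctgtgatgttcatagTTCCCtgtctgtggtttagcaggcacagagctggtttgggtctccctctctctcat
Dntt: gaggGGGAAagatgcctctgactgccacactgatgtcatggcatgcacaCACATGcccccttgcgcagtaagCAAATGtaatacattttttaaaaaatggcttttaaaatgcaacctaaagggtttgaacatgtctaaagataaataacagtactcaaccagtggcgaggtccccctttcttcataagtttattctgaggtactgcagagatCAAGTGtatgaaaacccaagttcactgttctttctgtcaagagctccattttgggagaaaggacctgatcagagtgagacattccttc

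Flt3 held 2 E-boxes and 1 GGGAA, Il7r held 3 and 2, and Dntt held 3 and 1. Notch1, whose window has a GC content of 68.3%, held neither. These letters are common, since 72.3% of all 32851 promoter windows held CANNTG, 62.7% held GGGAA and 25.6% held TGGGAA. The matches describe the windows and do not tell which factor, if any, is bound there.

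The nearest genes on either side of each member, of those with at least 10 reads, numbered 18 in all. Of these, 3 were lower, 2 were higher and 13 were not called, and their median log2 ratio was 0.09. These shares are near the 14.9% and 10.5% of all genes. Blnk, a B-cell signalling adaptor 34.7 kb from Dntt, had counts of 37 and 1. Capsl, 40.1 kb from Il7r, had 30 and 5 reads, and Rnf145, 51.8 kb from Ebf1, had 673 and 88. Fyco1, 6.1 kb from Ccr9, and Gm10800, the nearest such gene on one side of Rag1 but 2971 kb from it, were higher, with log2 ratios of 1.74 and 1.04. On the other side of Dntt, Tm9sf3 had 358 and 285 reads and was not called. Polr1d and D5Ertd605e, which flank Flt3, were not called, with log2 ratios of 0.07 and 0.89.

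The GO terms in the deposited tables show what the members have in common. Lymphocyte differentiation was listed for 6 of the 10 (Flt3, Il7r, Ly6d, Rag1, Rag2 and Satb1) and for 1.75% of the genes with at least 10 reads. The term cell surface was listed for 5 (Ccr9, Flt3, Il7r, Ly6d and Notch1) and for 3.56% of those genes. All 5 cell surface members were called lower, beside 14.9% of all genes. Of the members that act in the nucleus, Dntt and Ebf1 were called lower and Satb1 was not called. Rag1 and Rag2 were under the read minimum.

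The partners of Notch1, its ligands, modifiers and targets, were compared next, with counts given for week-0 and then week-3. Of 21 Notch pathway genes with enough reads, 7 were lower and 1 was higher, beside 14.9% and 10.5% of all genes. Their median log2 ratio was -0.52. Of the called genes, Hey1, Jag2, Hes1 and Nrarp had the largest log2 ratios below 0. Hes1, a transcriptional repressor induced by Notch and by other signals, had 1976 and 60 reads (FPKM 109 and 5.40). Its level was 20.1-fold lower. Hey1, a related target, had 118 and 3 reads, a log2 ratio of -4.59 with an interval from -6.89 to -3.01, and Nrarp, a feedback target, had 21 and 2. The ligand Jag2 had 2442 and 64 reads and was 23.3-fold lower (FPKM 94.8 and 4.06). The receptor Notch2, with the most reads of the list, had 3319 and 1193 reads and a log2 ratio of -0.77, which did not reach the limit of 2 times. Lfng, Maml1 and Jag1 were also called lower, and Notch3, with 3 and 9 reads, was the gene called higher, though not by edgeR with an assumed variation of 0.1.

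**Figure D3:**
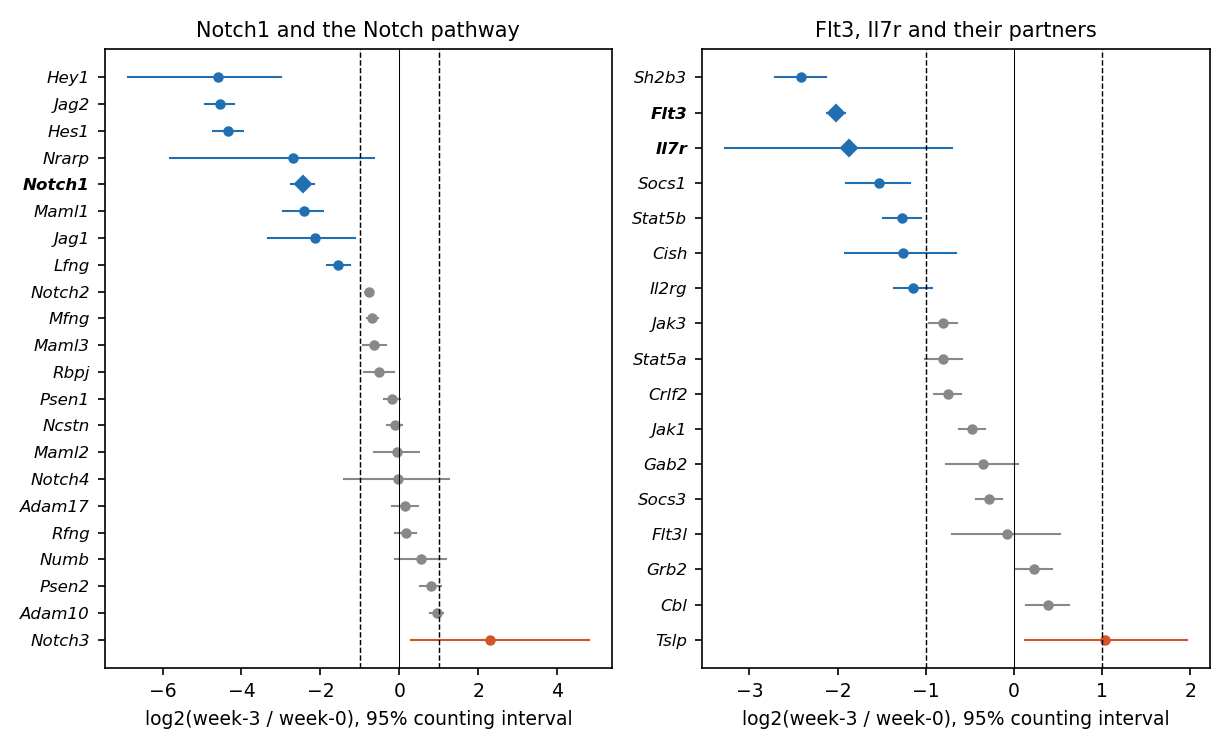
Log2 ratio of week-3 over week-0 (points) with exact 95% counting intervals (lines) for Notch1 and 21 Notch pathway genes (left) and for Flt3, Il7r and their 15 signalling partners (right). Diamonds mark the lymphoid-primed members, blue marks genes called lower, red genes called higher, and dashed lines ratios of 2 and 0.5. Hey1, Jag2, Hes1 and Nrarp have lower ratios than Notch1, though the interval of Nrarp overlaps that of Notch1. Sh2b3 has a lower ratio than Flt3.

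Of 15 genes that act with FLT3 and the interleukin-7 receptor, 5 were lower and 1 was higher, beside 14.9% and 10.5% of all genes. Sh2b3, an adaptor that restrains cytokine signalling, had 987 and 113 reads, 5.34-fold lower. Socs1, a cytokine-induced inhibitor, had 374 and 79 reads (2.90-fold lower), and Cish, a STAT5 target, had 110 and 28. Stat5b, a transcription factor downstream of both receptors, had 857 and 218 reads and was 2.40-fold lower. Il2rg, the common gamma chain that pairs with the Il7r product, was also called lower, with a log2 ratio of -1.14. Jak1 and Jak3, the kinases bound to these chains, had log2 ratios of -0.47 and -0.80 and were not called. The gene called higher was the cytokine gene Tslp, with 20 and 25 reads and a log2 ratio of 1.03, and it was not called with TMM or median-of-ratios scaling or by edgeR with an assumed variation of 0.1.

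Among 15 further genes of lymphoid-primed and multipotent progenitors, 6 were lower and none was higher, beside 14.9% and 10.5% of all genes. Mn1 had 613 and 103 reads (3.64-fold lower), Cnn3 had 498 and 98 (3.11-fold lower) and Ltb, which encodes lymphotoxin beta, had 411 and 104 (2.42-fold lower). Ccr7, a chemokine receptor that also guides progenitors to the thymus, had 19 and 3 reads and was not called by edgeR with that assumed variation. The pan-leukocyte genes Cd53 and Cd37, with the most reads of this list, had log2 ratios of 0.16 and -0.23 and were not called. The median log2 ratio of this list was -0.44.

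The 18 early lymphoid transcription factors were mixed. Of them, 4 were lower and 2 higher, beside 14.9% and 10.5% of all genes, and the median log2 ratio was 0.03. Id3, an inhibitor of E proteins, had 1202 and 60 reads and was 12.3-fold lower. Irf4, a factor of B-cell and plasma cell development, had 42 and 0 reads. Against the floor of 3 reads Irf4 was 8.56-fold lower, and the least fold of its interval was 6.66. Foxo1, which acts upstream of Il7r and the Rag genes in lymphoid cells, had 126 and 20 reads (3.85-fold lower), and Mef2c, which favours lymphoid over myeloid fate, had 2003 and 461 (2.66-fold lower). In the other direction, Gfi1, a repressor used in both neutrophil and lymphoid development, had 37 and 104 reads and a log2 ratio of 2.20. Myb, a progenitor factor, was also higher, with 676 and 875 reads. Spi1, which encodes PU.1, had 2766 and 1740 reads and a log2 ratio of 0.04.

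The partners of RAG1 and RAG2 in cutting and joining were mostly not called. Of 13 such genes with enough reads, 1 was lower and 3 were higher, beside 14.9% and 10.5% of all genes, and the median log2 ratio was 0.13. Hmgb1 and Hmgb2, cofactors of RAG cutting, had 5561 and 5507 reads at week-0 and log2 ratios of 0.14 and 0.12. Poll, a polymerase of the same family as TdT, was higher, with 123 and 176 reads and a log2 ratio of 1.23. Polm, the closest relative of TdT, was called higher on 5 and 10 reads, but not with TMM or median-of-ratios scaling or by edgeR with an assumed variation of 0.1. Rnf8, a ubiquitin ligase of DNA repair, was called higher on 24 and 33 reads. Trp53bp1 was the gene called lower, with a log2 ratio of -1.19.

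**Figure D4:**
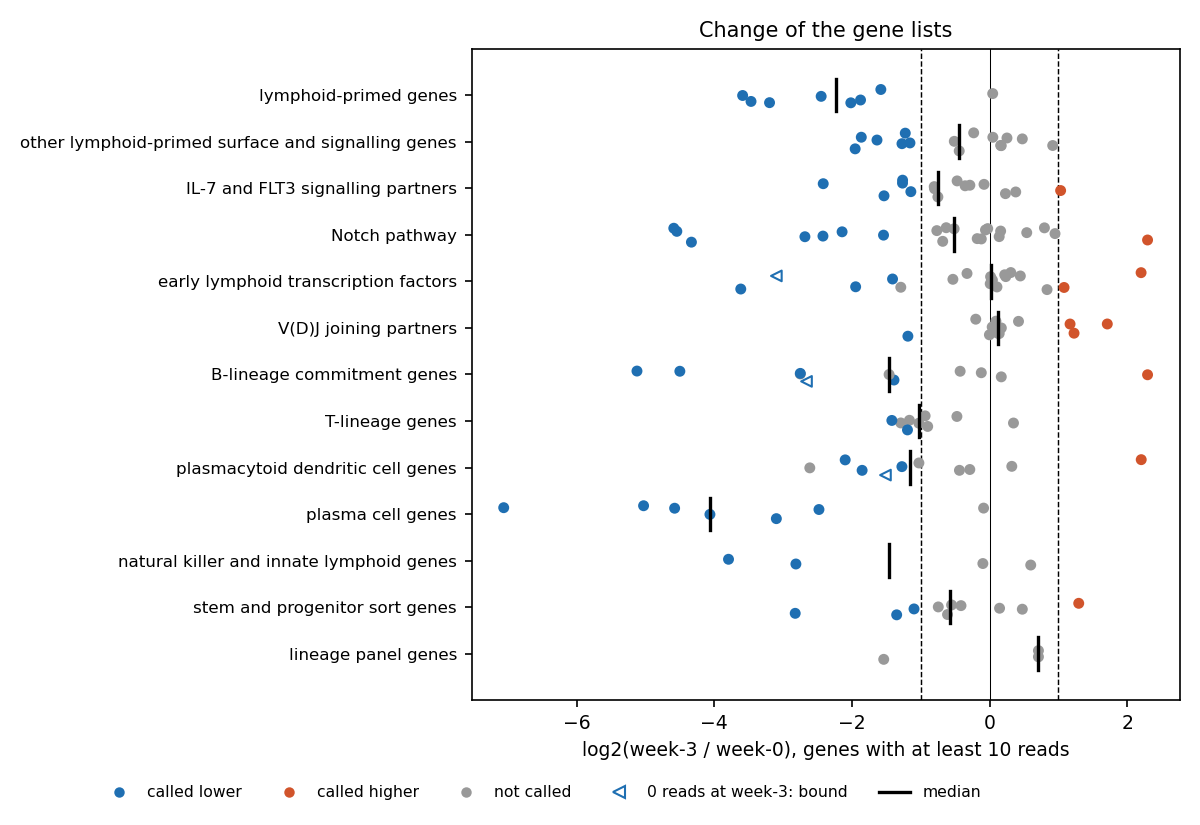
Log2 ratio of week-3 over week-0 for each gene with at least 10 reads (points) by gene list (rows), with the median of each list as a black bar and dashed lines at ratios of 2 and 0.5. Open triangles are genes with 0 reads at week-3, drawn at the ratio that 3 reads would give. The lymphoid-primed genes have a median of -2.23, the plasma cell genes -4.06, the early lymphoid transcription factors 0.03 and the V(D)J joining partners 0.13.

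Markers of other lymphoid cells were counted in the same way, beside the 14.9% of all genes called lower and the 10.5% called higher. Of the 7 plasma cell genes, 6 were lower. Jchain, the joining chain of secreted antibodies, had 5120 and 96 reads, Mzb1 218 and 1, Prdm1 39 and 1 and Derl3 82 and 3. Xbp1, with 1454 and 837 reads and a log2 ratio of -0.09, was the gene not called. The list took 1114 and then 246 RPM, and none of its genes was at 0 at either time point. Of 11 B-lineage genes with enough reads, 5 were lower and 1, Il2ra, was higher. Cd79a, a B-cell receptor subunit, had 114 and 2 reads, whereas its partner Cd79b had 314 and 216. Blnk, Pou2af1 (22 and 2 reads), Cd72 (514 and 120 reads) and Fcrla were the others called lower. Fcrla had 31 and 0 reads. It was 6.32-fold lower against the floor of 3 reads, and the least fold of its interval was 4.84. The list took 175 and then 97.8 RPM. The defining B-cell genes Ms4a1, Pax5 and Cd22, named here after their values were seen, were at few reads in both libraries. Ms4a1 had 9 and 2 reads, Pax5 5 and 2 and Cd22 1 and 0, and Vpreb2, Cd22 and Fcrla were among the genes at 0 at week-3. Plasmacytoid dendritic cells express Ccr9, Ly6d and Flt3 as well. Of 10 of their genes, 4 were lower, 1 was higher and 5 were not called. Klk1, with 14 and 0 reads, was 2.85-fold lower against the floor of 3 reads, and the least fold of its interval was 2.03. Among the others was Runx2, with 1393 and 236 reads. Siglech, with 21 and 3 reads, was not called by edgeR with an assumed variation of 0.1. Ly6c2 was higher, with 1118 and 3148 reads, and through it the 12 genes took 713 and then 1111 RPM. Klk1 was at 0 at week-3 and Cd209d at week-0. Of 9 T-lineage genes, Lat (501 and 134 reads) and Tcf7 (35 and 8) were lower and Lck, with 313 and 100, was not called, though it was lower with TMM or median-of-ratios scaling. The list took 174 and 87.7 RPM, and Cd2 and Ptcra were at 0 at week-0 and Cd3e and Cd8a at week-3. The part of these cells in the lower levels of Flt3, Dntt, Notch1, Ly6d, Ccr9, Il7r and Ebf1 was not tested.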

How the data were processed

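The RNA-seq data comprised 1 BM LSK library for week-0 and 1 for week-3, each from 3 pooled mice. cDNA had been prepared with the SMARTer Ultra Low Input kit. Per the labels and methods, reads were trimmed and mapped to GRCm38 (mm10) with TopHat2 2.0.9. The authors deposited counts, whole numbers of reads per gene without normalization, and FPKM, in which the authors scaled reads to exon length and library size. The counting tool, its use of strand and the annotation are not given in the sources used here.

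Tables were joined by Ensembl identifier. Where a symbol had several, the identifier with most reads was used. Ratios were computed from counts divided by total gene counts. Their 95% intervals are Clopper-Pearson (exact binomial) limits on the share of a gene's reads found at week-3, turned into ratios. FPKM intervals are exact Poisson. Genes with at least 10 reads over both libraries entered the call rule (2 times or 0.5 times, interval on one side), and a library at 0 was set to 3 reads. No p-values are given, since there are no replicates. edgeR 4.0.16 (exact test, assumed variation, Benjamini-Hochberg adjustment over all genes) and the size factors of DESeq2 1.42.0 served as alternatives, in R 4.3.3. Other alternatives were TMM scaling, other fold limits, pseudocounts and read minimums. Python 3.11.15, pandas 2.3.3 and scipy 1.17.1 were used. The call rule and intervals were tested on simulated data that held counting error alone, so that test says nothing on spread between libraries. Strand, exons and overlaps come from GENCODE M21.

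The members and gene lists were chosen with earlier results of these data known. Beside the members, the text names in each list the 4 called genes with the largest change and the 2 with the most reads, all genes of lists with 6 or fewer genes above the read minimum, and the nearest expressed neighbours. Il2rg, Tslp, Lfng, Maml1, Jag1, Notch3, Myb, Il2ra, Ly6a, overlapping genes, and markers with few or 0 reads were named outside this rule, after their values were seen. Igj and Ly76 had no row under those symbols. Some genes of these lists are not reported here.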

Additional observations from a re-analysis of the deposited data

How the results depend on the processing

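With TMM scaling, median-of-ratios scaling, the fold limit of 1.5 or 0.67, the fold limit alone, edgeR with an assumed variation of 0.1 and no minimum of reads, the same 7 lymphoid-primed genes were lower and 0 were higher. With at least 50 reads, 5 were lower, because Il7r and Ebf1 were left out. With an assumed variation of 0.4, 1 member was lower (Ly6d), and of all genes 195 were lower and 52 higher. Over all 13689 genes, 2046 were lower and 1444 higher by the main rule. With the limit of 1.5 or 0.67, 2896 were lower and 2797 higher, and with the fold limit alone 2455 and 1633. TMM scaling gave 2239 lower and 1227 higher. With at least 50 reads, where 10343 genes were considered, 1317 were lower and 917 higher. The median change of the members was -1.26 with a pseudocount of 1 FPKM, which shrinks the ratios of low genes, and between -2.12 and -1.68 with the other alternatives. TMM scaling moved every log2 ratio by -0.08 and median-of-ratios scaling by -0.07, and no member's value left its interval. With a pseudocount of 1 FPKM the values of Ccr9, Ebf1 and Notch1 left theirs, at -0.61, -0.23 and -1.95. Of the counts of the other gene lists under 5 alternatives, 17 moved by over 1.5 times and 103 did not. No paired analysis was possible because each time point has 1 library, and for the same reason no library could be left out. Rag1 and Rag2, under 10 reads, are limited by depth.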

Other observations

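Of 10 stem and progenitor sort genes, 3 were lower and 1 was higher, beside 14.9% and 10.5% of all genes. Among the lower genes, Procr, which encodes the stem cell surface protein EPCR, had 221 and 53 reads, and Mecom, a stem cell transcription factor, had 154 and 44. Slamf1 was called higher on 10 and 15 reads, but not with TMM or median-of-ratios scaling or by edgeR with an assumed variation of 0.1. Cd34 had 3804 and 1523 reads and was not called, with a log2 ratio of -0.61.

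Of 4 natural killer and innate lymphoid genes with enough reads, 2 were lower and none was higher, beside 14.9% and 10.5% of all genes. Nkg7 led with 2839 and 2627 reads (log2 ratio 0.60). Il2rb, the interleukin-2 receptor beta chain, had 68 and 3 reads, and Klrd1 had 23 and 2, and both were called lower. Klrb1c had 7 and 4 reads. Ncr1 and Eomes had 1 and 0 reads each, and Tbx21 had 0 in both libraries, so these 3 genes were near absent at both time points. The list took 463 and then 679 RPM, nearly all of it Nkg7. Of the 3 lineage panel genes with enough reads, none was called by the main rule, and 1 had a lower level at week-3. Itgam had 30 and 30 reads and Ly6g 5 and 5. As the week-3 library was smaller, each had a log2 ratio of 0.71, with an interval that held equality.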
